A study of Mus musculus with 50 samples.

Results

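Nuclear genes for the subunits of the 5 oxidative phosphorylation complexes were followed in the livers of pregnant CD-1 mice and their fetuses after daily dosing with perfluorooctanoic acid (PFOA) or with GenX (hexafluoropropylene oxide dimer acid, HFPO-DA). The genes were chosen by symbol: Nduf genes of the a, b, c, s and v series, Uqcr, Cox4i, Cox5, Cox6, Cox7, Cox8 and Atp5 genes, the 4 Sdh genes Sdha to Sdhd, and Cyc1. Pseudogenes and the Ndufaf assembly factors were left out. Of 88 symbols that met the rule, 85 had a probe of their own among the 30142 genes tested. Ndufb4, Ndufa11 and Ndufa11b were named only on probes shared with other genes and were not used. Complex I was represented by 34 genes, complex II by 4, complex III by 9, complex IV by 20 and complex V, the ATP synthase, by 18. Ndufa4 and Ndufa4l2 were placed with complex IV, and the complex V set holds Dmac2, an older Atp5 symbol (Atp5sl) now known as a complex I assembly factor.

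Oxidative phosphorylation takes place in the inner mitochondrial membrane. Complex I accepts electrons from NADH and complex II from succinate, complex III passes them from ubiquinol to cytochrome c, and complex IV passes them to oxygen. The protons pumped by complexes I, III and IV drive the ATP synthase. Most subunits are encoded in the nucleus and the remainder in mitochondrial DNA, and liver uses the system to oxidise the products of fatty acid and amino acid breakdown. PFOA and GenX are perfluoroalkyl acids that are known to activate the nuclear receptor PPARα, whose targets in rodent liver include genes of fatty acid oxidation.

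RNA was measured on Affymetrix whole-transcript arrays, 1 array per liver and 50 in all, 25 maternal and 25 fetal. Dams were gavaged daily from embryonic day 1.5 to 17.5 with vehicle (control, 0 mg/kg/day), PFOA at 1 or 5 mg/kg/day (PFOA1, PFOA5) or GenX at 2 or 10 mg/kg/day (GenX2, GenX10), and livers were taken on day 17.5. Each of the 10 groups of tissue and dose held 5 arrays, except fetal PFOA5 with 6 and fetal GenX10 with 4. Maternal tissue was a piece of the left lateral lobe, and fetal tissue was the liver of 1 randomly chosen fetus of a litter, labelled female. All mice were of the outbred CD-1 stock, and the fetuses were exposed through their dams. The labels describe maternal and fetal livers as matched but do not name the pairs. The p-values for comparisons within a tissue rest on the spread between its livers. Those for comparisons across tissues rest on a spread shared by both tissues and treat matched livers as independent.

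Values are log2 signals, and a gene counted as above background on an array when its signal passed the 95th percentile of that array's 5222 negative control probe sets, which lay between 7.38 and 8.18. Of the 85 genes, 51 were above background on all 50 arrays and 9 were above it on none. Between 4356 and 7400 of the 30142 genes were above background on an array. A gene was called higher or lower when its adjusted p was under 0.05 in limma, with Benjamini-Hochberg adjustment over all 30142 genes. The 10 hepatocyte markers averaged a log2 signal of 12.40 in control dams and 11.75 in control fetuses. Albumin (Alb), 1 of the 10, had 13.45 and 13.31. The 7 erythroid markers averaged 6.58 in control dams and 10.3 in control fetuses. Some arrays stood apart. Fetal PFOA5 replicate 6 and fetal GenX2 replicate 5 carry a source name of another group than their title, which was followed here. The mean log2 signal of Y-linked genes was 6.24 in fetal control replicate 3 and 5.80 in fetal GenX2 replicate 2, against 3.63 to 3.74 in the other fetal arrays. Counts without these arrays are given with the fetal results. Maternal GenX2 replicate 1 had the highest complex II mean of its group, at 9.77 against 9.18 to 9.34, and the maternal GenX2 count is given without it as well.

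The stretch upstream of the start site is shown for the gene of each complex with the largest called rise in maternal PFOA5, since these 5 genes recur in the results. Each line gives the 250 bases before a transcript start from RefSeq (GRCm38.p6), 5′ to 3′ on the strand of the gene, in lower case with any motif found in capitals. The windows are chr10:80249199-80249448 on the plus strand for Ndufs7, and, on the minus strand, chr9:50603850-50604099 for Sdhd, chr11:4704345-4704594 for Uqcr10, chr9:79759854-79760103 for Cox7a2 and chr2:73911327-73911576 for Atp5g3. The windows of Ndufs7, Cox7a2 and Atp5g3 lie inside the span RefSeq gives for the gene, which reaches further upstream than the start used here, and those of Sdhd and Uqcr10 lie outside it.
Ndufs7: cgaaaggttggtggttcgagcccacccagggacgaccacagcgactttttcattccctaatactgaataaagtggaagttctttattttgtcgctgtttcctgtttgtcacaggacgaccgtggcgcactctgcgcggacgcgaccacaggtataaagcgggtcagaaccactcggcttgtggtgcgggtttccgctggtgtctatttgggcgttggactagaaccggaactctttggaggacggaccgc
Sdhd: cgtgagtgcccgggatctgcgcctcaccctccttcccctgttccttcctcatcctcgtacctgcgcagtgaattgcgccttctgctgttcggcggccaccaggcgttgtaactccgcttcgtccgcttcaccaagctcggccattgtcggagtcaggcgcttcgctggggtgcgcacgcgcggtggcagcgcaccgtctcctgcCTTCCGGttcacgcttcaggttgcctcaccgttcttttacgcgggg
Uqcr10: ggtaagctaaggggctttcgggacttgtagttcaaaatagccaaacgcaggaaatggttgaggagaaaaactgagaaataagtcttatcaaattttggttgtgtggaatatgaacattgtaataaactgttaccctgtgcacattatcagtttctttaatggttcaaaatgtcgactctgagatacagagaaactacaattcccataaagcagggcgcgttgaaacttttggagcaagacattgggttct
Cox7a2: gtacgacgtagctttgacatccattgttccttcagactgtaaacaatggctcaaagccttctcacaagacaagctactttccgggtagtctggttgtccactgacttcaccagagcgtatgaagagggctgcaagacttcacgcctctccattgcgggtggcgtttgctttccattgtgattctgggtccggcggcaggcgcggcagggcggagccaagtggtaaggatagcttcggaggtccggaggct
Atp5g3: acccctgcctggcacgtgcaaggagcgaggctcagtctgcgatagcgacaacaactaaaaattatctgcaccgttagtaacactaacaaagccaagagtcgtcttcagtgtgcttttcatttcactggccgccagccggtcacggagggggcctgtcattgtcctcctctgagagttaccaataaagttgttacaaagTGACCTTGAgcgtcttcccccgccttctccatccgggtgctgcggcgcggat
In the Sdhd window the capitals mark an ETS-type motif (CCGGAAG, here read from the other strand), and in the Atp5g3 window an estrogen-related receptor motif (TCAAGGTCA, also from the other strand). The windows of Ndufs7, Uqcr10 and Cox7a2 held none of the 4 motifs searched.

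Promoter windows were found for 68 of the 85 genes, 73 windows in all, and of 72 whose gene has a span in RefSeq 8 lay inside it. Each motif was searched on both strands with no mismatch. The NRF1 motif GCATGCGC, the site of a factor known for its role in respiratory chain genes, stood in 7 of the 73 windows (9.59%), against 741 of 32851 promoters of all genes (2.26%). Its carriers were Ndufa6, Ndufa8, Sdhb, Cox6a1, Atp5g2, Atp5k and Atp5l. The ETS motif CCGGAAG stood in 12 windows (16.4%), against 6.91% of all promoters, among them those of Sdhd, Uqcrh, Cox6b1 and Ndufs3. The motif TCAAGGTCA stood only in the Atp5g3 window among the 73 (1.37%), against 0.387% of all promoters. The PPAR-type direct repeat, AGGNCA and a second copy of it after 1 base, stood in none of the 73 and in 0.338% of all promoters. A match describes letters in these windows and no binding was measured.

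In dams given PFOA5 or GenX10, the mean signal of the 85 genes lay above the controls on every array. The mean over the 85 genes was 8.41 to 8.54 on the 5 maternal control arrays, 8.46 to 8.57 in PFOA1, 8.58 to 8.80 in PFOA5, 8.58 to 8.90 in GenX2 and 8.75 to 8.87 in GenX10. In fetuses it was 8.42 to 8.52 in controls, 8.62 to 8.74 in PFOA1, 8.54 to 8.76 in PFOA5, 8.63 to 8.76 in GenX2 and 8.64 to 8.78 in GenX10. Maternal PFOA1 was the one exposed group whose arrays overlapped the controls. The fetal PFOA1 arrays did not overlap theirs, although the dose was the same. Group means moved by a small amount on the log2 scale, from 8.48 ± 0.05 (SD, n = 5) to 8.79 ± 0.05 between control and GenX10 dams and from 8.48 ± 0.04 to 8.70 ± 0.07 (n = 4) between control and GenX10 fetuses. In whole liver, a change in the number of cells of a type and a change in RNA per cell cannot be told apart.

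**Figure D1:**
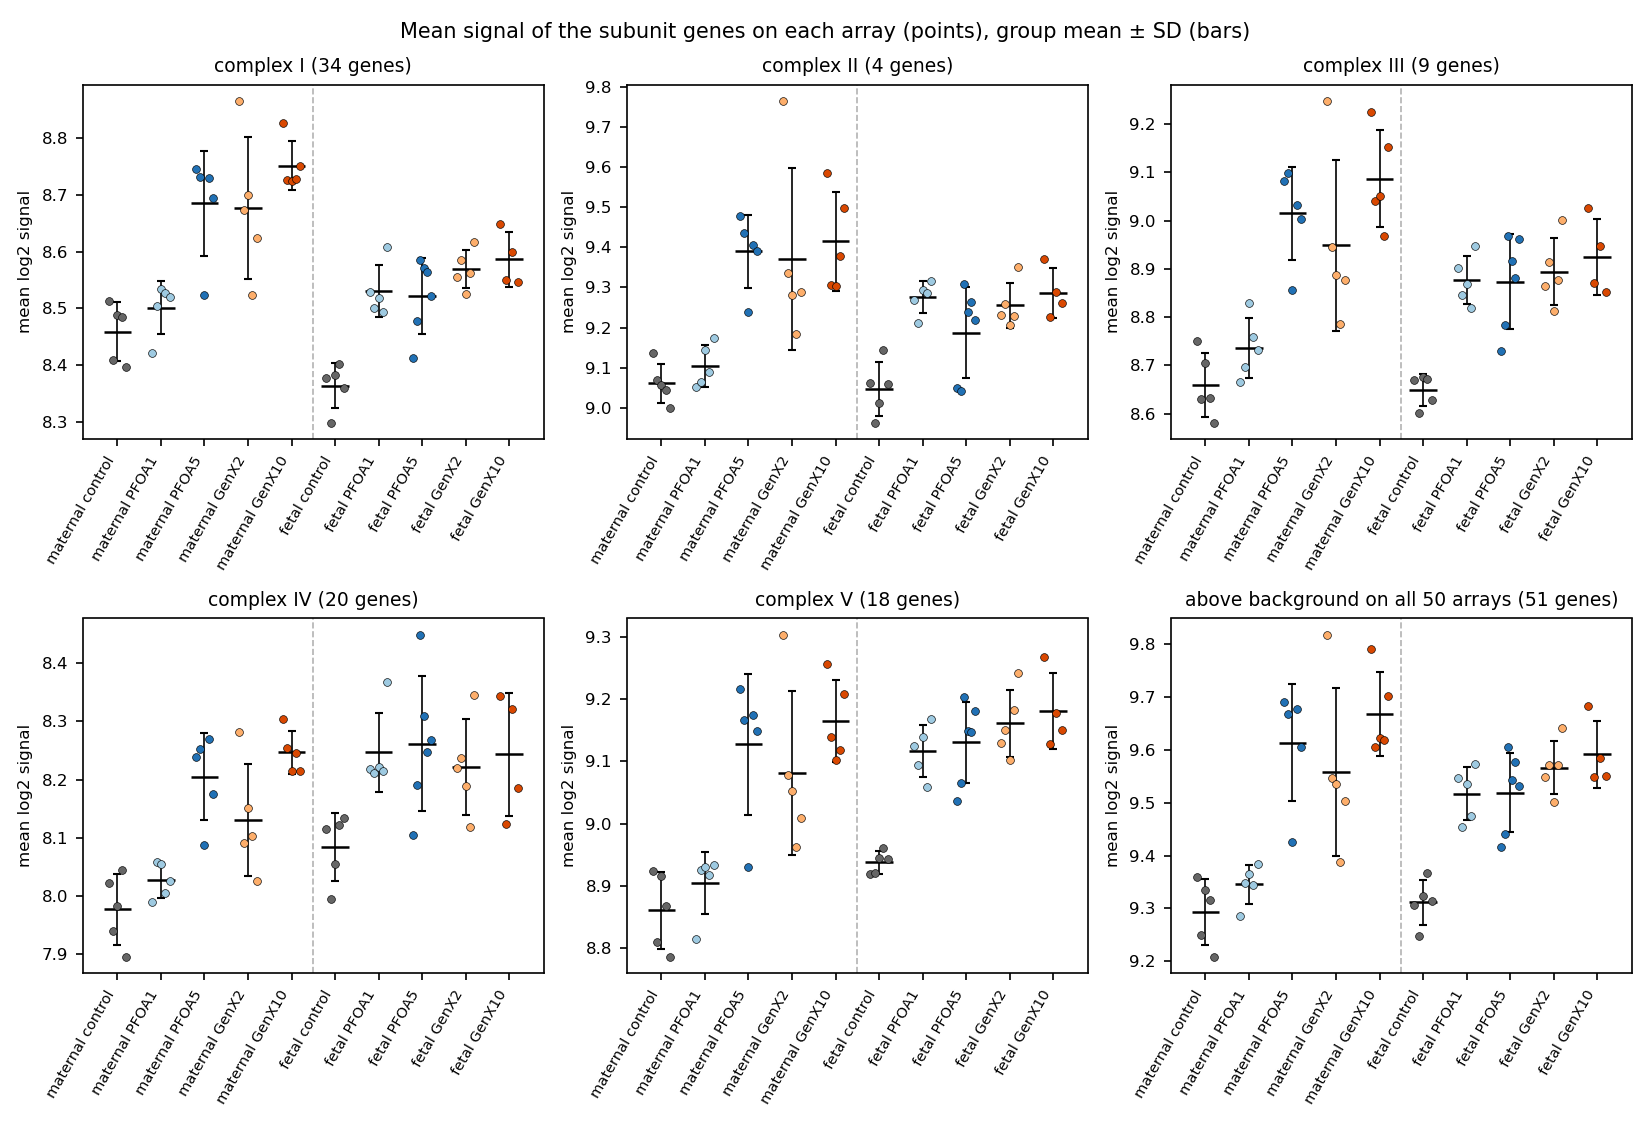
Mean log2 signal over the genes of each complex, and over the 51 genes above background on all 50 arrays, for the 10 groups. Each point is 1 array, and bars give the group mean and SD. Complex I lay at 8.40 to 8.51 on maternal control arrays and at 8.73 to 8.83 on maternal GenX10 arrays, and at 8.30 to 8.40 and 8.55 to 8.65 in the same groups of fetuses.

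Where subunit genes passed the test against the control livers of their tissue, they were higher. In dams, 45 of the 85 rose with PFOA5 and none fell. Of all genes tested, 20.1% were called in either direction and 11% were called higher. With GenX10, 51 rose and none fell, against 13.8% of all genes called and 7.66% higher. With GenX2, 16 rose and none fell, against 3.4% called and 2.46% higher. With PFOA1, limma called none of the 85, and 0.0332% of all genes, 0.0299% higher. At an unadjusted p under 0.05, 2 subunit genes were higher and 1 lower in PFOA1 dams, and the 95% intervals of the 85 log2 differences reached from −0.36 to 0.47. In fetuses, 8 rose with PFOA1 (0.965% of all genes called, 0.853% higher), 13 with PFOA5 (3.44% and 2.37%), 30 with GenX2 (6.86% and 3.99%) and 37 with GenX10 (9.42% and 4.5%), and none fell. The exposed groups of a tissue share their 5 control arrays, so their counts are not independent of each other. Of the called genes, 39 of 45 in PFOA5 dams, 14 of 16 in GenX2 dams, 44 of 51 in GenX10 dams, 7 of 8, 10 of 13, 26 of 30 and 32 of 37 in the fetal groups were above background in both groups compared. PFOA and GenX were given at different doses and their values stand side by side without a comparison.

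Bright genes as a class also moved up, and the subunit genes are mostly bright. Of the 3075 genes above background on all 50 arrays, 40.1% were higher in PFOA5 dams, 7.38% in GenX2 dams and 25.2% in GenX10 dams. The 51 subunit genes that met the same condition were higher in 66.7%, 25.5% and 72.5% of cases. In fetuses the bright genes were higher in 3.61%, 8.55%, 17% and 17.1% of cases for PFOA1, PFOA5, GenX2 and GenX10, and the 51 subunit genes in 13.7%, 17.6%, 49% and 54.9%. The median log2 difference of the 51 was 0.33 in PFOA5 dams and 0.38 in GenX10 dams, where the 3075 bright genes had medians of 0.19 and 0.14. In GenX10 fetuses the medians were 0.30 and 0.11. Over all 30142 genes the median lay between −0.06 and 0.02 in the 8 comparisons with controls. The part of this shift of bright genes in the subunit counts was not tested.

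**Figure D2:**
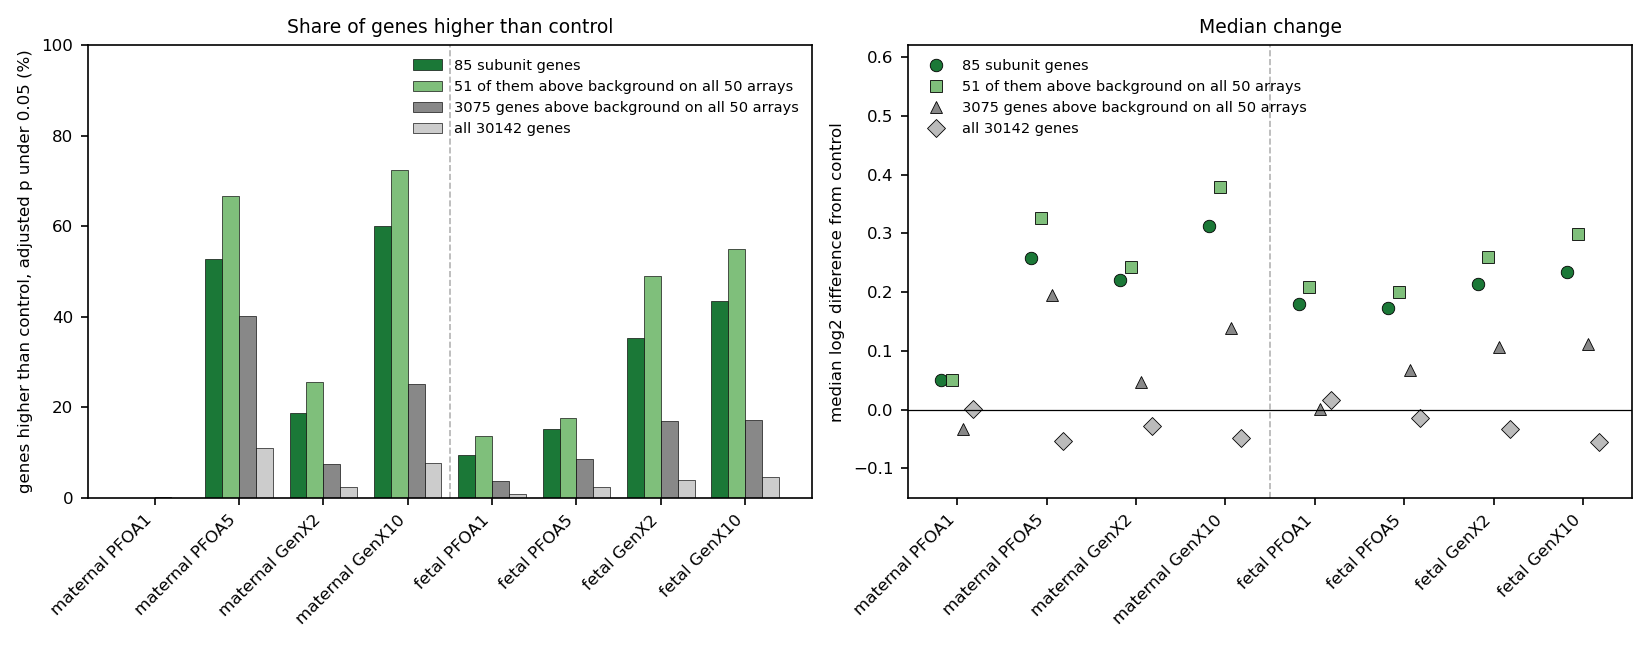
Left, the share of genes called higher than control (%), and right, the median log2 difference from control, in the 8 exposed groups, for the 85 subunit genes, the 51 above background on all arrays, the 3075 genes above background on all arrays and all 30142 genes. In PFOA5 dams 52.9% of the 85 genes were higher, against 40.1% of the 3075 bright genes and 11% of all genes.

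The counts moved with the scaling and with single arrays. When the quantile normalization was repeated over the named genes, the PFOA5 count in dams became 22 higher and 3 lower, and in fetuses the count was 4 with PFOA5, 16 with GenX2 and 19 with GenX10. The maternal GenX2 count was 8 without GenX2 replicate 1, 9 without GenX2 replicate 2, 9 without control replicate 5 and 34 without GenX2 replicate 4. The GenX10 fetal count was 20 without GenX10 replicate 1. The fetal PFOA1 count was 3 without control replicate 2, 4 without control replicate 3, 4 without PFOA1 replicate 3, and 5 without PFOA1 replicate 4 or replicate 5. The fetal PFOA5 count was 8 without control replicate 1, control replicate 2 or PFOA5 replicate 5, and 7 without PFOA5 replicate 3. Without both arrays of conflicting labels the fetal counts were 7, 11, 23 and 33 for PFOA1, PFOA5, GenX2 and GenX10, and with the source names followed they were 9, 11, 19 and 42. Without the 2 arrays with Y-linked signal they were 4, 13, 29 and 36. In each fit that left out 1 array, 32 of the 45 maternal PFOA5 calls, 8 of the 16 maternal GenX2 calls and 36 of the 51 maternal GenX10 calls were made again. In fetuses this held for 3 of the 8 PFOA1 calls, 6 of the 13 PFOA5 calls, 20 of the 30 GenX2 calls and 19 of the 37 GenX10 calls.

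Of the 34 genes of complex I, the NADH dehydrogenase, 14 were higher in PFOA5 dams, 6 in GenX2 dams and 20 in GenX10 dams, and none was called in PFOA1 dams. These were 41.2%, 17.6% and 58.8% of the 34, where 11%, 2.46% and 7.66% of all genes were higher. Of the 3075 bright genes 40.1%, 7.38% and 25.2% were higher, so the PFOA5 share of complex I was near theirs. In fetuses 2, 6, 13 and 17 were higher with PFOA1, PFOA5, GenX2 and GenX10. The median log2 difference of the 34 was 0.23, 0.21 and 0.31 in PFOA5, GenX2 and GenX10 dams, and 0.17, 0.15, 0.19 and 0.23 in the fetal groups in the order above. Its median in PFOA5 dams was the lowest of the 5 complexes and that of complex III, at 0.37, the highest. That difference between complexes was not tested.

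Ndufs7 encodes a core complex I subunit that carries an iron-sulphur cluster, and its rise was the largest called among the 34 in PFOA5 and GenX10 dams. Its log2 signal was 8.33, 7.82, 7.95, 8.23 and 8.01 on the maternal control arrays and 8.87, 8.98, 8.62, 8.81 and 9.02 with PFOA5. GenX10 dams had 8.76, 8.89, 8.57, 8.73 and 9.02, and PFOA1 dams 8.10, 8.31, 8.28, 8.09 and 8.24. The PFOA5 and GenX10 arrays all lay above every control array, and the PFOA1 arrays lay within the control range. The log2 difference was 0.79 ± 0.12 (SE) with PFOA5, a 1.73-fold rise (adjusted p = 2.3e-05), and 0.73 ± 0.12 with GenX10, a 1.66-fold rise (adjusted p = 9.8e-05). In GenX2 dams it was 0.44 ± 0.12 (adjusted p = 0.03), and the call was made in 5 of 10 fits that left out 1 array. Without GenX2 replicate 1, which had 8.98 where the others had 8.26 to 8.46, the difference was 0.32 and was not called. Fetal Ndufs7 differences were 0.21 to 0.24 and none passed the test (adjusted p = 0.15 to 0.51).

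In fetuses the largest complex I rise was that of Ndufa3, a small accessory subunit of the membrane arm. Fetal control arrays had 8.15, 7.86, 7.77, 7.998 and 8.18, and GenX2 arrays 8.49, 8.55, 8.59, 8.53 and 8.91, with no overlap. The 6 PFOA5 arrays ran from 8.28 through a median of 8.63 to 8.89, also above every control. GenX10 arrays had 8.90, 8.06, 8.70 and 8.38 and overlapped the controls through 1 array. The log2 difference was 0.59 ± 0.13 with PFOA5 (1.50-fold, adjusted p = 0.009), 0.62 ± 0.14 with GenX2 (1.54-fold, adjusted p = 0.0058) and 0.52 ± 0.15 with GenX10 (adjusted p = 0.026). The GenX10 call for Ndufa3 was lost without GenX10 replicate 1 or 3, or without control replicate 2 or 3, at differences of 0.39 to 0.48. With PFOA1 the difference was 0.42 ± 0.14 and did not pass (adjusted p = 0.24), although all 5 arrays lay above the controls. In dams Ndufa3 passed with GenX10 (0.43 ± 0.12, adjusted p = 0.019; 0.37 and not called without control replicate 5).

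Ndufa10, an accessory subunit, was called in dams given PFOA5 (0.50, adjusted p = 3.1e-05), GenX2 (0.40, adjusted p = 0.0017) and GenX10 (0.59, adjusted p = 4.9e-06). Its fetal differences were smaller, at 0.27, 0.29, 0.38 and 0.39 with PFOA1, PFOA5, GenX2 and GenX10 (adjusted p = 0.022, 0.003, 0.00022 and 0.00032). Ndufs4, an accessory subunit needed for a stable enzyme, rose by 0.58 in GenX10 dams (adjusted p = 0.00017). Ndufs8, a core iron-sulphur subunit, rose in fetuses by 0.43 with GenX2 (adjusted p = 0.008) and by 0.43 with GenX10 (adjusted p = 0.01). Ndufb9, a membrane-arm subunit and among the brightest of the set, rose by 0.41 in GenX2 fetuses (adjusted p = 0.0016) and by 0.43 in GenX10 fetuses (adjusted p = 0.0018). Ndufab1, the mitochondrial acyl carrier protein that is also a complex I subunit, was called in every exposed group but PFOA1 dams, yet it was not well above background in any group and no fold is given. The complex I genes called in no exposed group were Ndufa1, Ndufa2, Ndufa5, Ndufa6, Ndufb2, Ndufb7, Ndufb8, Ndufb10, Ndufc2, Ndufs5 and Ndufv3.

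**Figure D3:**
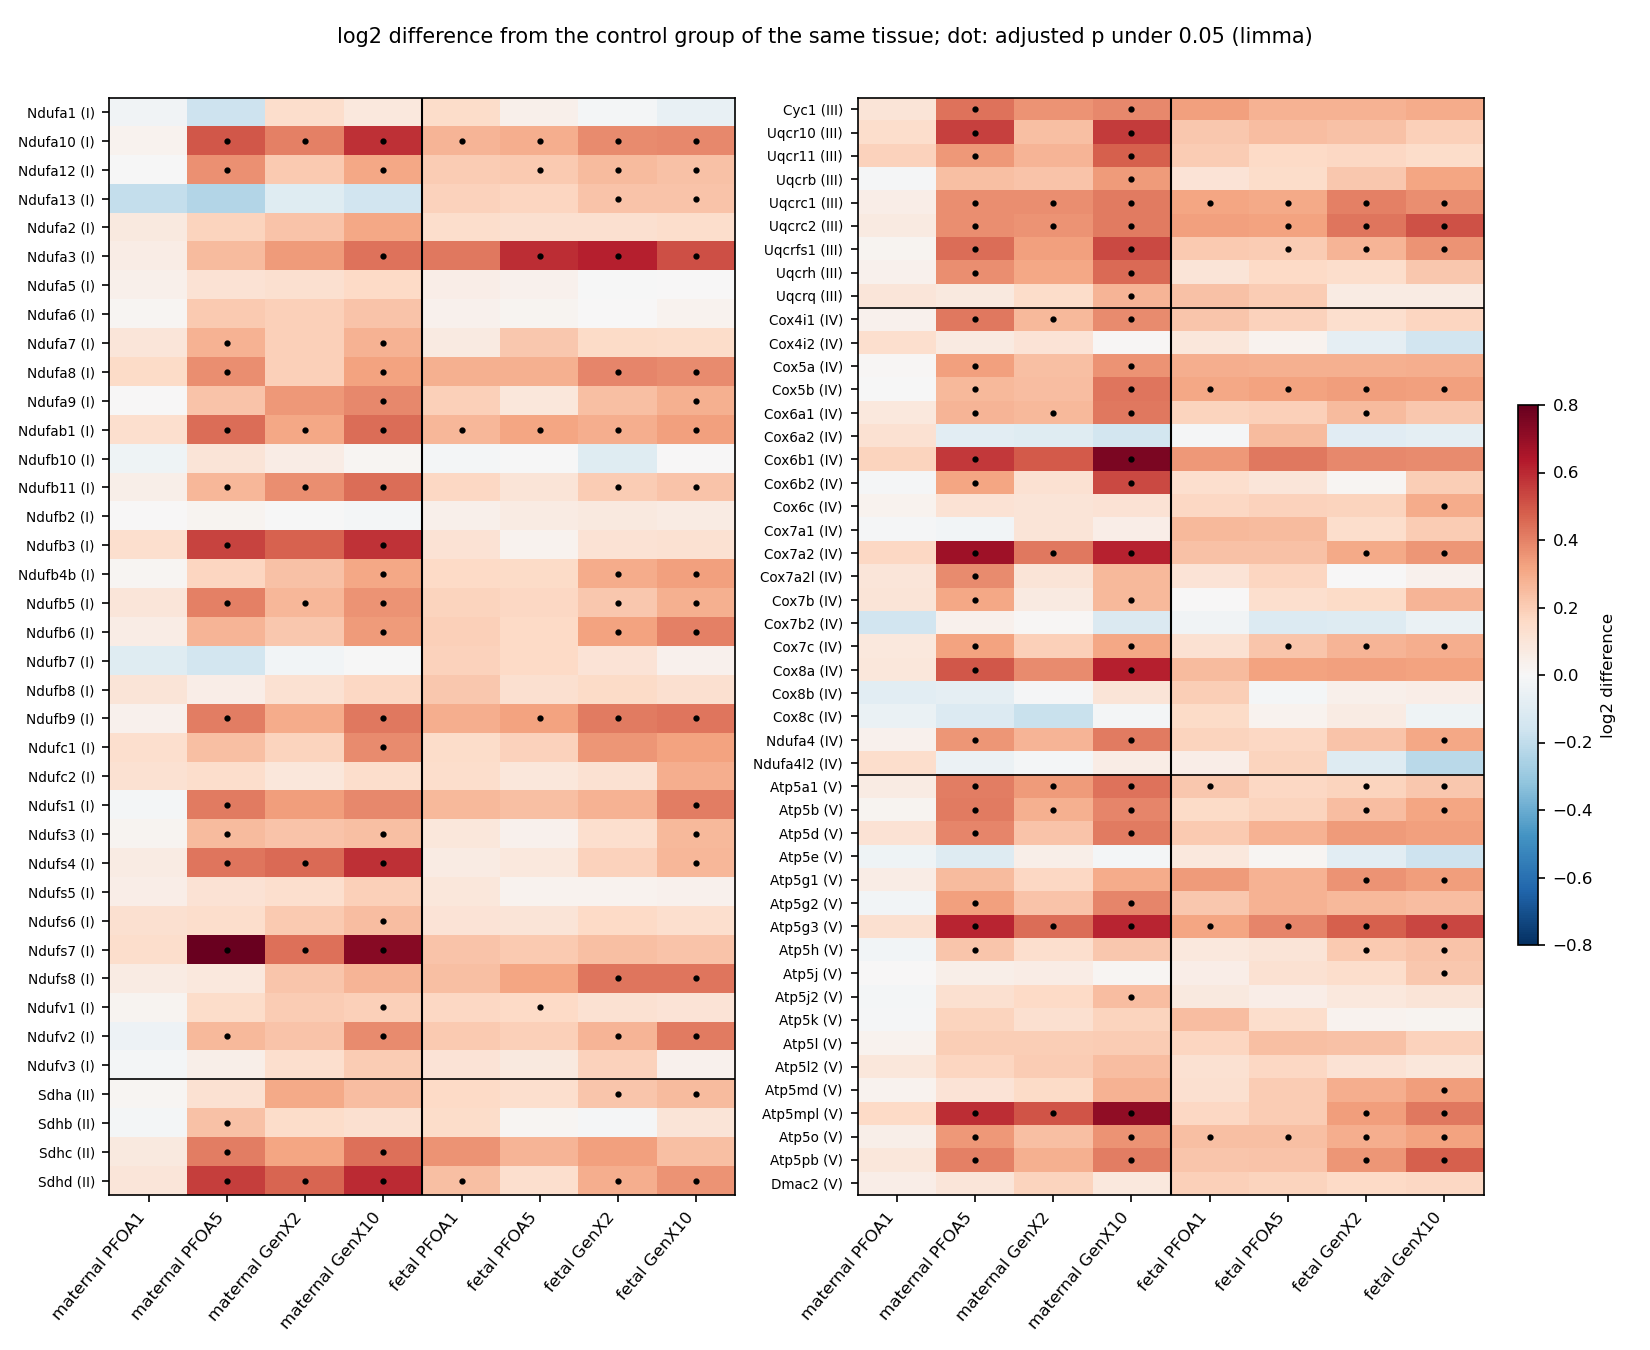
Log2 difference from the control group of the same tissue for each of the 85 genes (rows, with the complex in brackets) in the 8 exposed groups (columns), with red for higher and blue for lower. A dot marks an adjusted p under 0.05 in limma, and all the dots, 45, 16 and 51 in PFOA5, GenX2 and GenX10 dams and 8, 13, 30 and 37 in the fetal groups, lie on rises.

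Complex II, the succinate dehydrogenase, is also an enzyme of the citric acid cycle, and its membrane anchor Sdhd had the largest of its 4 differences in dams. Maternal Sdhd signals were 9.49, 9.57, 9.57, 9.42 and 9.36 in controls and 10.15, 9.98, 10.01, 10.03 and 10.00 with PFOA5. They were 10.33, 9.88, 9.89, 9.73 and 9.92 with GenX2 and 10.31, 9.92, 9.97, 10.02 and 10.18 with GenX10. All 15 of these exposed arrays lay above every control. The log2 difference was 0.55 ± 0.09 with PFOA5 (1.47-fold, adjusted p = 0.00015), 0.47 ± 0.09 with GenX2 (adjusted p = 0.0039) and 0.60 ± 0.09 with GenX10 (1.51-fold, adjusted p = 8.6e-05). In fetuses, Sdhd was 9.94, 9.91, 9.96, 10.07 and 9.92 in controls, 10.28, 10.19, 10.16, 10.27 and 10.35 with GenX2, and 10.49, 10.23, 10.22 and 10.34 with GenX10. Again the exposed arrays lay above every control, with differences of 0.29 ± 0.06 (adjusted p = 0.0021) and 0.36 ± 0.06 (adjusted p = 0.00038). The fetal PFOA1 difference for Sdhd was 0.24 ± 0.06 (adjusted p = 0.035) and was called in 3 of 10 fits that left out 1 array. The fetal PFOA5 difference was 0.14 ± 0.06 and did not pass (adjusted p = 0.25).

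Sdhc, the other membrane anchor, rose in PFOA5 dams by 0.41 ± 0.12 (adjusted p = 0.02) and in GenX10 dams by 0.44 ± 0.12 (adjusted p = 0.018), from 8.67 ± 0.17 in controls, and was called in no fetal group. The calls were made in 7 and 9 of 10 fits that left out 1 array, with a lowest difference of 0.37 for PFOA5, without PFOA5 replicate 2 or control replicate 2 or 5, and 0.40 for GenX10, without GenX10 replicate 5. Sdhb, the iron-sulphur subunit, was 9.28 ± 0.04 in control dams and 9.51 ± 0.09 with PFOA5, a difference of 0.23 ± 0.08 (adjusted p = 0.043) that was called in 1 of 10 such fits. Sdha, the flavoprotein that oxidises succinate, did not pass in dams, at 0.12, 0.31 and 0.25 with PFOA5, GenX2 and GenX10 (adjusted p = 0.37, 0.08 and 0.082). In fetuses Sdha rose by 0.25 ± 0.07 with GenX10 (adjusted p = 0.027; called in 5 of 9 fits) and by 0.22 ± 0.07 with GenX2, where the adjusted p rounded to 0.05 and 2 of 10 fits made the call. In both tissues Sdhd had the largest complex II differences under GenX10.

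Complex III, the cytochrome bc1 complex, had 7 of 9 genes higher in PFOA5 dams, 2 in GenX2 dams and all 9 in GenX10 dams. In fetuses 1, 3, 3 and 3 were higher with PFOA1, PFOA5, GenX2 and GenX10. Uqcrc2, a core protein of the complex, was 9.54, 9.71, 9.65, 9.47 and 9.71 in control dams and 10.07, 9.99, 9.92, 10.05 and 9.90 in PFOA5 dams, which did not overlap, a difference of 0.37 ± 0.10 (adjusted p = 0.0097). In control fetuses it was 9.56, 9.67, 9.79, 9.70 and 9.45, in GenX2 fetuses 10.05, 9.95, 10.02, 10.26 and 10.04, and in GenX10 fetuses 10.36, 10.22, 9.92 and 10.06. Both GenX groups lay wholly above the fetal controls, with differences of 0.43 ± 0.09 (adjusted p = 0.0023) and 0.51 ± 0.09 (1.42-fold, adjusted p = 0.00066). Uqcrc1, the partner core protein, rose by 0.37 in PFOA5 dams (adjusted p = 0.0087), 0.41 in GenX10 dams (adjusted p = 0.0066) and 0.40 in GenX2 fetuses (adjusted p = 0.0013). Cyc1, which encodes cytochrome c1, rose by 0.43 ± 0.12 in PFOA5 dams (adjusted p = 0.013).

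The largest complex III difference in PFOA5 dams belonged to Uqcr10, a small subunit near the background. Its control signals of 7.21, 6.97, 7.20, 6.98 and 6.79 were not well above background on any array. PFOA5 dams had 7.67, 7.66, 7.35, 7.62 and 7.58, above background on 3 of 5 arrays, and GenX10 dams 7.56, 7.65, 7.50, 7.53 and 7.72, above it on 4 of 5. The exposed arrays all lay above the controls (adjusted p = 0.0001 and 0.00011), but the controls give only a bound and no fold is given. Fetal Uqcr10 was not well above background on any of the 25 arrays. Uqcrfs1, the Rieske iron-sulphur protein, was called in PFOA5 and GenX10 dams and in PFOA5, GenX2 and GenX10 fetuses, with control groups not well above background throughout. Uqcr11, another small subunit, rose by 0.48 ± 0.11 in GenX10 dams (adjusted p = 0.0046).

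Complex IV, the cytochrome c oxidase, has subunits with alternative forms for liver, muscle, lung or testis. In the isoform sets, the forms called higher had signal in control liver, apart from Cox6b2. Cox4i2, Cox6a2, Cox7a1 and Cox8b were above background on no array, so a rise in them could hardly have been called. Whether the forms differ in response was not tested. Of the 20 complex IV genes, 12 rose in PFOA5 dams, 3 in GenX2 dams and 11 in GenX10 dams, and 1, 2, 4 and 5 in the fetal groups. The fetal shares were 5%, 10%, 20% and 25%, near the 3.61%, 8.55%, 17% and 17.1% of bright genes. Cox7a2, the liver form of subunit 7a, was 9.08, 9.11, 9.26, 9.10 and 9.18 in control dams, 9.87, 9.82, 9.68, 9.95 and 9.78 with PFOA5 and 9.99, 9.60, 9.76, 9.69 and 9.76 with GenX10. All exposed arrays of these groups lay above the controls, with differences of 0.68 ± 0.09 (1.60-fold, adjusted p = 3.4e-06) and 0.62 ± 0.09 (1.53-fold, adjusted p = 1.9e-05). GenX2 dams had 9.89, 9.57, 9.61, 9.22 and 9.52, and overlapped the controls through 1 array (0.42 ± 0.09, adjusted p = 0.0046). Fetal Cox7a2 was 9.31, 9.46, 9.74, 9.65 and 9.22 in controls, so that the GenX2 arrays at 9.70 to 9.87 and the GenX10 arrays at 9.68 to 9.94 overlapped them. The differences were 0.30 ± 0.09 (adjusted p = 0.03) and 0.36 ± 0.09 (adjusted p = 0.013), called in 5 of 10 and 7 of 9 fits that left out 1 array. The muscle form Cox7a1 was not well above background and was not called. Cox7a2l, a related protein that joins complexes III and IV into supercomplexes, rose by 0.38 ± 0.09 in PFOA5 dams (adjusted p = 0.0045).

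The other isoform sets are read with the same limit. Cox4i1, the widespread form of subunit 4, rose from 8.27 ± 0.08 in control dams by 0.42 ± 0.07 with PFOA5 (adjusted p = 0.00013) and by 0.38 with GenX10 (adjusted p = 0.00073), whereas Cox4i2, known from lung, was below background on all 50 arrays. Fetal Cox4i1 differences were 0.13 to 0.22 and none passed. Cox6a1, the liver form, rose from 11.17 ± 0.17 by 0.27 with PFOA5 (adjusted p = 0.0073) and by 0.42 with GenX10 (adjusted p = 0.00016), and its muscle form Cox6a2 was not called. Cox6b1, the widespread form, rose from 9.89 ± 0.25 by 0.56 ± 0.14 with PFOA5 (adjusted p = 0.0064) and by 0.75 ± 0.14 with GenX10 (adjusted p = 0.0008). It did not pass in GenX2 dams (0.49, adjusted p = 0.057) or in fetuses (0.34 to 0.42, adjusted p = 0.095 to 0.48). Cox6b2, the testis form, was above background on no maternal control array, on 1 of 5 PFOA5 arrays and on 5 of 5 GenX10 arrays, with means of 7.02 ± 0.07, 7.34 ± 0.07 and 7.55 ± 0.11 (adjusted p = 0.0024 and 9.7e-06). Cox6b2 is the one isoform outside liver's usual set that was called. Cox8a rose from 10.11 ± 0.27 by 0.50 with PFOA5 (adjusted p = 0.01) and by 0.62 with GenX10 (adjusted p = 0.0027), and the muscle form Cox8b was not well above background. Ndufa4, first described in complex I, rose by 0.35 ± 0.11 in PFOA5 dams (adjusted p = 0.026) and by 0.42 in GenX10 dams (adjusted p = 0.013). In fetuses Cox5b, whose product binds zinc in the complex, rose by 0.31, 0.32, 0.34 and 0.33 in the 4 groups (adjusted p = 0.0056, 0.00094, 0.00082 and 0.0015).

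Complex V had 9, 4 and 9 of its 18 genes higher in PFOA5, GenX2 and GenX10 dams, and 3, 2, 8 and 10 in PFOA1, PFOA5, GenX2 and GenX10 fetuses. The fetal shares were 16.7%, 11.1%, 44.4% and 55.6%, and the PFOA5 share was near the 8.55% of bright genes. Atp5g3, one of a set of genes that encode the same mature subunit c of the proton-driven ring, was called in every exposed group but PFOA1 dams. Maternal signals were 9.005, 8.87, 8.98, 8.92 and 8.87 in controls, 9.62, 9.55, 9.41, 9.55 and 9.58 with PFOA5, 9.59, 9.38, 9.43, 9.16 and 9.33 with GenX2, and 9.77, 9.43, 9.49, 9.49 and 9.53 with GenX10. All 15 lay above the controls, with differences of 0.61 ± 0.07 (1.53-fold, adjusted p = 8.3e-07), 0.45 ± 0.07 (adjusted p = 0.00029) and 0.61 ± 0.07 (adjusted p = 1.2e-06). PFOA1 dams had 8.99, 8.94, 9.09, 9.08 and 9.18, which overlapped the controls (0.13, adjusted p = 1). Fetal controls had 8.99, 9.02, 9.14, 9.17 and 9.04. PFOA1 fetuses had 9.46, 9.33, 9.43, 9.35 and 9.35, and the 6 PFOA5 fetuses ran from 9.38 through a median of 9.45 (the mean was 9.46 ± 0.08) to 9.60. GenX2 fetuses had 9.51, 9.42, 9.60, 9.63 and 9.59 and GenX10 fetuses 9.73, 9.64, 9.50 and 9.55. No exposed fetal array overlapped a fetal control. The differences were 0.31 ± 0.05 (adjusted p = 0.0015), 0.39 ± 0.05 (adjusted p = 2.2e-05), 0.48 ± 0.05 (adjusted p = 1.7e-06) and 0.54 ± 0.06 (1.45-fold, adjusted p = 7.1e-07). Each of these 7 Atp5g3 calls was made in every fit that left out 1 array.

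**Figure D4:**
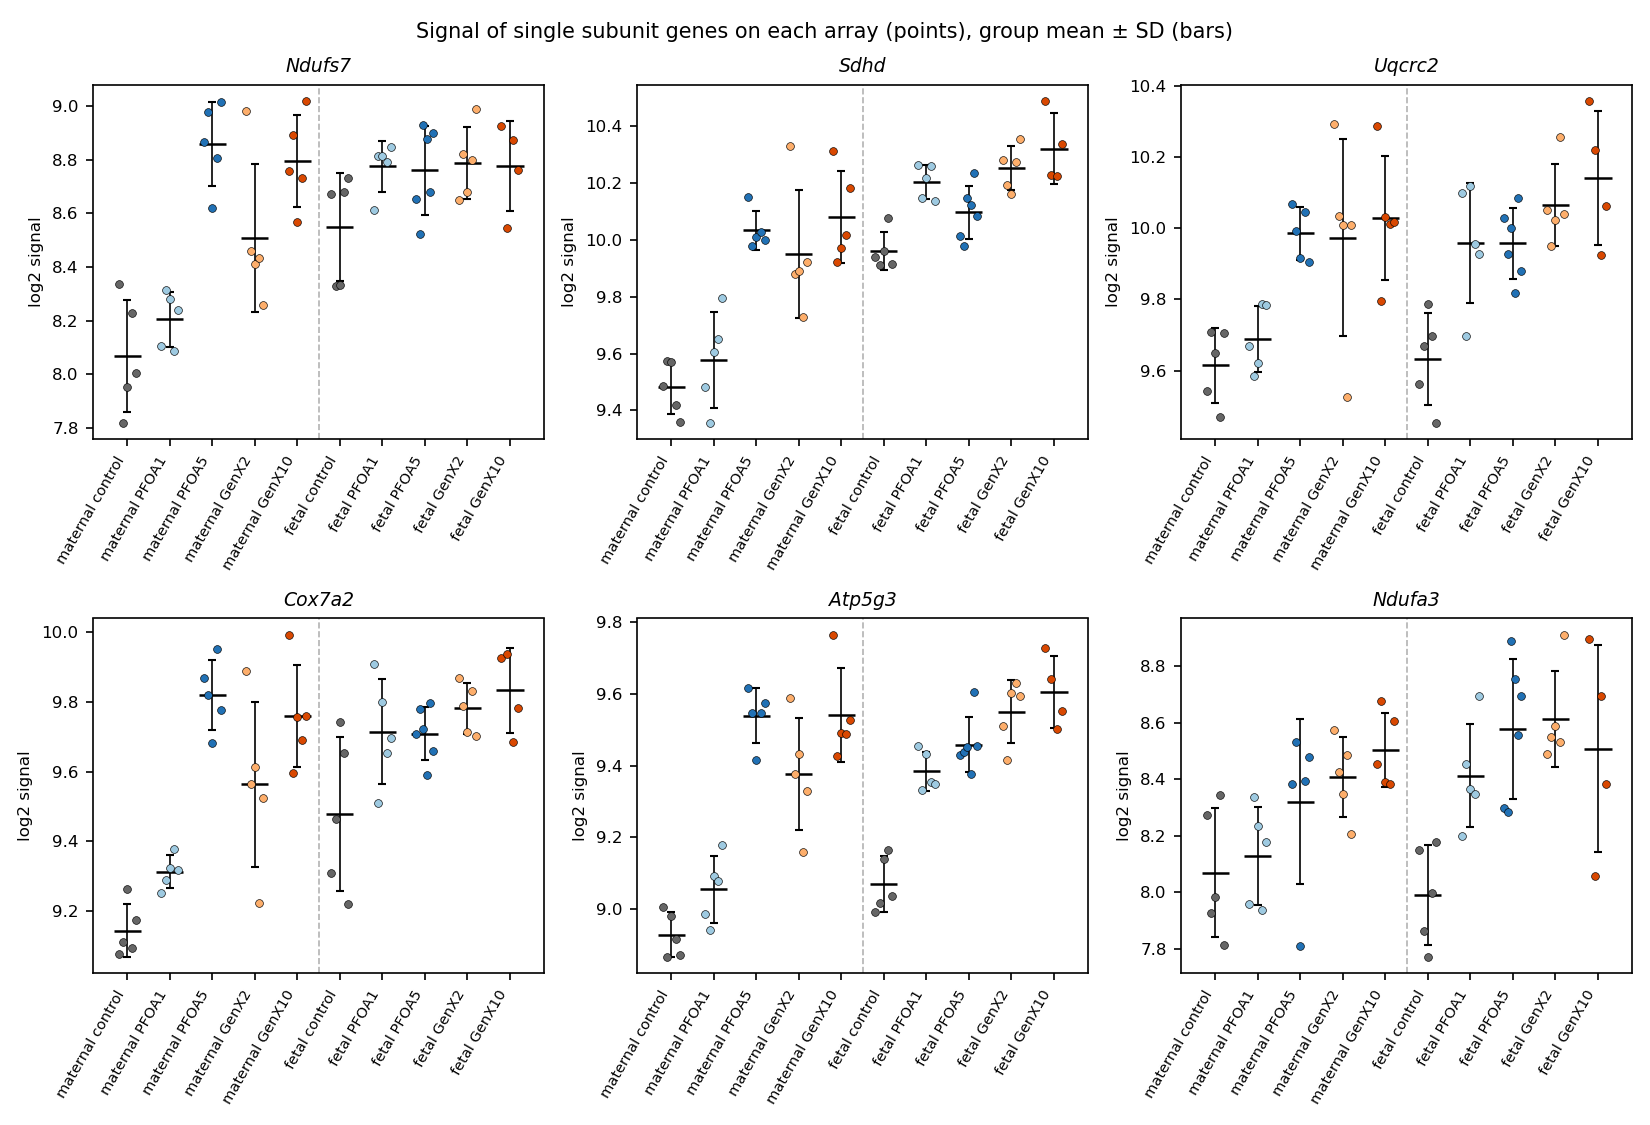
Log2 signal on each array (points) with group mean and SD (bars) for Ndufs7, Sdhd, Uqcrc2, Cox7a2, Atp5g3 and Ndufa3 in the 10 groups. Atp5g3 lay at 8.87 to 9.005 on maternal and 8.99 to 9.17 on fetal control arrays. These values were below every exposed array of the same tissue except those of PFOA1 dams. Ndufs7 was 8.33 to 8.73 in fetal controls.

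Of the other genes of the subunit c set, Atp5g2 was called in PFOA5 and GenX10 dams and Atp5g1 in GenX2 and GenX10 fetuses. Atp5b, the catalytic beta subunit, was 9.94, 10.06, 10.05, 9.92 and 9.95 in control dams and 10.44, 10.40, 10.41, 10.41 and 10.35 in PFOA5 dams, with no overlap (0.42 ± 0.07, adjusted p = 0.00017). In GenX10 fetuses it had 10.81, 10.74, 10.61 and 10.74, against 10.27, 10.45, 10.53, 10.48 and 10.31 in controls (0.31, adjusted p = 0.002), again with no overlap. Atp5a1, the alpha subunit, rose by 0.34 in GenX2 dams (adjusted p = 0.0048) and by 0.43 in GenX10 dams (adjusted p = 0.00012). Atp5mpl, a small membrane subunit, rose by 0.59 in PFOA5 dams (adjusted p = 0.00013), 0.50 in GenX2 dams (adjusted p = 0.0037) and 0.71 in GenX10 dams (adjusted p = 2.1e-05). In fetuses Atp5o, the stalk protein that confers oligomycin sensitivity, rose by 0.24, 0.24, 0.29 and 0.32 in the 4 groups (adjusted p = 0.012, 0.003, 0.00053 and 0.00028), and Atp5pb, the peripheral stalk subunit b, by 0.48 with GenX10 (adjusted p = 0.0015). Atp5e, Atp5k, Atp5l, Atp5l2 and Dmac2 were called in no exposed group.

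Between doses, 36 of the 85 genes were higher in PFOA5 than in PFOA1 dams and none lower, where 18.9% of all genes were called and 10.4% were higher. Of the genes above background on all arrays, 40.9% were higher, against 28 of the 51 subunit genes of that class (54.9%). The largest difference was again that of Ndufs7 (0.65 ± 0.12, adjusted p = 0.00031), and Atp5g3 differed by 0.48 ± 0.07 (adjusted p = 3.7e-05). The count was 23 without PFOA5 replicate 1, 21 without replicate 2 and 22 without replicate 4, and 14 after repeated quantile normalization. Between GenX10 and GenX2 dams, 1 gene differed, Cox6b2 (adjusted p = 0.0067), which was not well above background in GenX2 dams, and 0.239% of all genes were called. In fetuses limma called none of the 85 between PFOA5 and PFOA1, with 0.0498% of all genes called and 2 members at an unadjusted p under 0.05. It called none between GenX10 and GenX2 either, with 0% of all genes called and 2 members at an unadjusted p under 0.05. The median log2 differences of those comparisons were −0.01 and 0.01.

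Of the 85 genes, 32 were called in at least 1 exposed group of each tissue, 23 in dams alone, 7 in fetuses alone and 23 in no exposed group. Over all genes, 3.6% were called higher in both tissues, 8.77% in dams alone, 2.11% in fetuses alone and 85.5% in neither. Over the 3075 genes above background on all arrays, 16.3% were called higher in both tissues, 26.3% in dams alone, 5.37% in fetuses alone and 52% in neither. The 51 subunit genes among them had 49%, 31.4%, 9.8% and 9.8%. Maternal and fetal lists share no arrays. With PFOA5, 11 genes were on both, 24.4% of the maternal and 84.6% of the fetal list. With GenX2, 13 were on both, 81.2% of the maternal and 43.3% of the fetal list. With GenX10, 28 were on both, 54.9% of the maternal and 75.7% of the fetal list. Over all genes called higher, the shared genes made up 14.8% of the maternal and 68.7% of the fetal list with PFOA5, 42.3% and 26.1% with GenX2, and 32.9% and 56% with GenX10. Among genes above background on all arrays these shares were 17.1% and 80.2%, 63% and 27.4%, and 45% and 66.2%, and among the 51 subunit genes of that class 23.5% and 88.9%, 84.6% and 44%, and 56.8% and 75%. No test was made of the gap between these shares. A gene on one list alone is not thereby shown to differ between tissues, and the difference of the effects was tested directly.

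The effect of PFOA5 differed between fetus and dam for 5 subunit genes, 1 higher and 4 lower in the fetus. These were 5.88% of the 85, near the 4.54% of all genes called, 1.79% higher and 2.75% lower. Of the 5 calls, 3 were made in every fit that left out 1 array. Ndufs7 differed by −0.58 ± 0.15 (fetal minus maternal, adjusted p = 0.014), Cox7a2 by −0.44 ± 0.12 (adjusted p = 0.02) and Sdhd by −0.42 ± 0.11 (adjusted p = 0.015). These are the genes with the largest maternal rises in complexes I, IV and II, and their fetal control means lay above the maternal ones. The maternal rises and the control means are part of the tested difference, so they are not separate observations. Ndufb3, a membrane-arm subunit, differed by −0.52 ± 0.16 (adjusted p = 0.045). It rose from 7.45 to 7.99 in PFOA5 dams and was not well above background in fetuses, so its fetal effect is not measured, and 8 of 21 fits that left out 1 array made the call. Ndufa13, a complex I subunit also known as GRIM-19, differed the other way, by 0.41 ± 0.11 (adjusted p = 0.015). Its difference from control was −0.24 ± 0.09 in dams (adjusted p = 0.053) and 0.17 in fetuses (adjusted p = 0.19), neither of which passed alone. The count of 5 was 3 without fetal control replicate 3 or 4, and 13 with array weights. For the other exposures limma called no subunit gene, with 11, 5 and 17 at an unadjusted p under 0.05 for PFOA1, GenX2 and GenX10, and with 0.186%, 1.31% and 2.08% of all genes called. For GenX10 the count was 4 with array weights and 3 with dim genes left out.

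Without PFOA or GenX, in the vehicle groups, control fetal and control maternal livers differed in 39 of the 85 genes, 19 higher and 20 lower in fetuses. Of all genes 62.3% differed, 20.2% higher and 42.1% lower, and the all-gene median was −0.13, so that the share of subunit genes called was below the background. Among genes above background on all arrays, 70.1% were called, 46.9% higher and 23.3% lower, against 13 higher and 12 lower of the 51 subunit genes (49%). The split between directions moved with the scaling, to 25 higher and 13 lower after median centring and to 17 higher and 27 lower after repeated quantile normalization. Complex I had 4 higher and 11 lower, complex II 1 and 2, complex III 1 and 2, complex IV 6 and 4, and complex V 7 and 1. Of the 39 called genes, 28 were above background in both control groups, 5 in 1 of them and 6 in neither. The 6 include Cox8b and Cox8c, called lower in complex IV, and Cox6b2, called higher there. They also include Dmac2, the lower gene of the complex V set. Erythroid markers moved with this comparison, all 7 higher in fetuses with a median log2 difference of 3.47, as were all 9 granulocyte markers (median 2.92), while 7 of 10 hepatocyte markers were lower. Their part in the subunit differences was not tested.

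Ndufa1, a small complex I subunit, was 8.80, 8.45, 8.59, 8.65 and 8.46 in control dams and 8.06, 7.84, 7.89, 7.88 and 7.95 in control fetuses, with no overlap and a 1.59-fold lower fetal level (log2 difference −0.67 ± 0.09, adjusted p = 5e-08). Ndufa13 and Ndufs8 were lower by similar amounts (−0.66 ± 0.08, adjusted p = 7.3e-10, and −0.66 ± 0.10, adjusted p = 2.7e-07). Ndufs7 went the other way within the same complex (0.48 ± 0.11, adjusted p = 0.00021), with 2 fetal arrays at 8.33, level with the highest maternal array. In complex II, Sdhd was higher in fetuses by 0.48 ± 0.08 (adjusted p = 1.5e-06), while Sdhb was lower (−0.27 ± 0.07, adjusted p = 0.0013). In complex III, Uqcrh, the acidic hinge protein, was higher by 0.42 ± 0.08 (adjusted p = 2.3e-05), and Uqcrq was lower (−0.38 ± 0.07, adjusted p = 2e-05). Uqcr11 was 8.34, 7.99, 8.10, 8.19 and 7.96 in dams and above background on no fetal control array, at least 1.17-fold lower in fetuses (adjusted p = 0.001).

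Ndufa4l2, a paralogue of Ndufa4 known as a target of hypoxia-inducible factor, had the widest tissue difference of the set. It was above background on none of 25 maternal arrays, with controls at 7.09 to 7.23, and on 24 of 25 fetal arrays. Fetal controls had 9.36, 8.20, 8.47, 8.67 and 8.47, at least 2.03-fold higher than in dams (adjusted p = 2.7e-07). No exposure changed it by the test, and the GenX10 fetuses ranged widely, at 9.10, 7.45, 8.89 and 8.24. In complex V, Atp5b was higher in fetal controls on every array (0.43 ± 0.07, 1.34-fold, adjusted p = 4.7e-07), as were Atp5o (0.42, adjusted p = 7.6e-08) and Atp5h, subunit d of the stalk (0.38, adjusted p = 7.8e-06). Cox7b, a small complex IV subunit, was higher by 0.45 ± 0.09 (adjusted p = 4.5e-05).

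**Figure D5:**
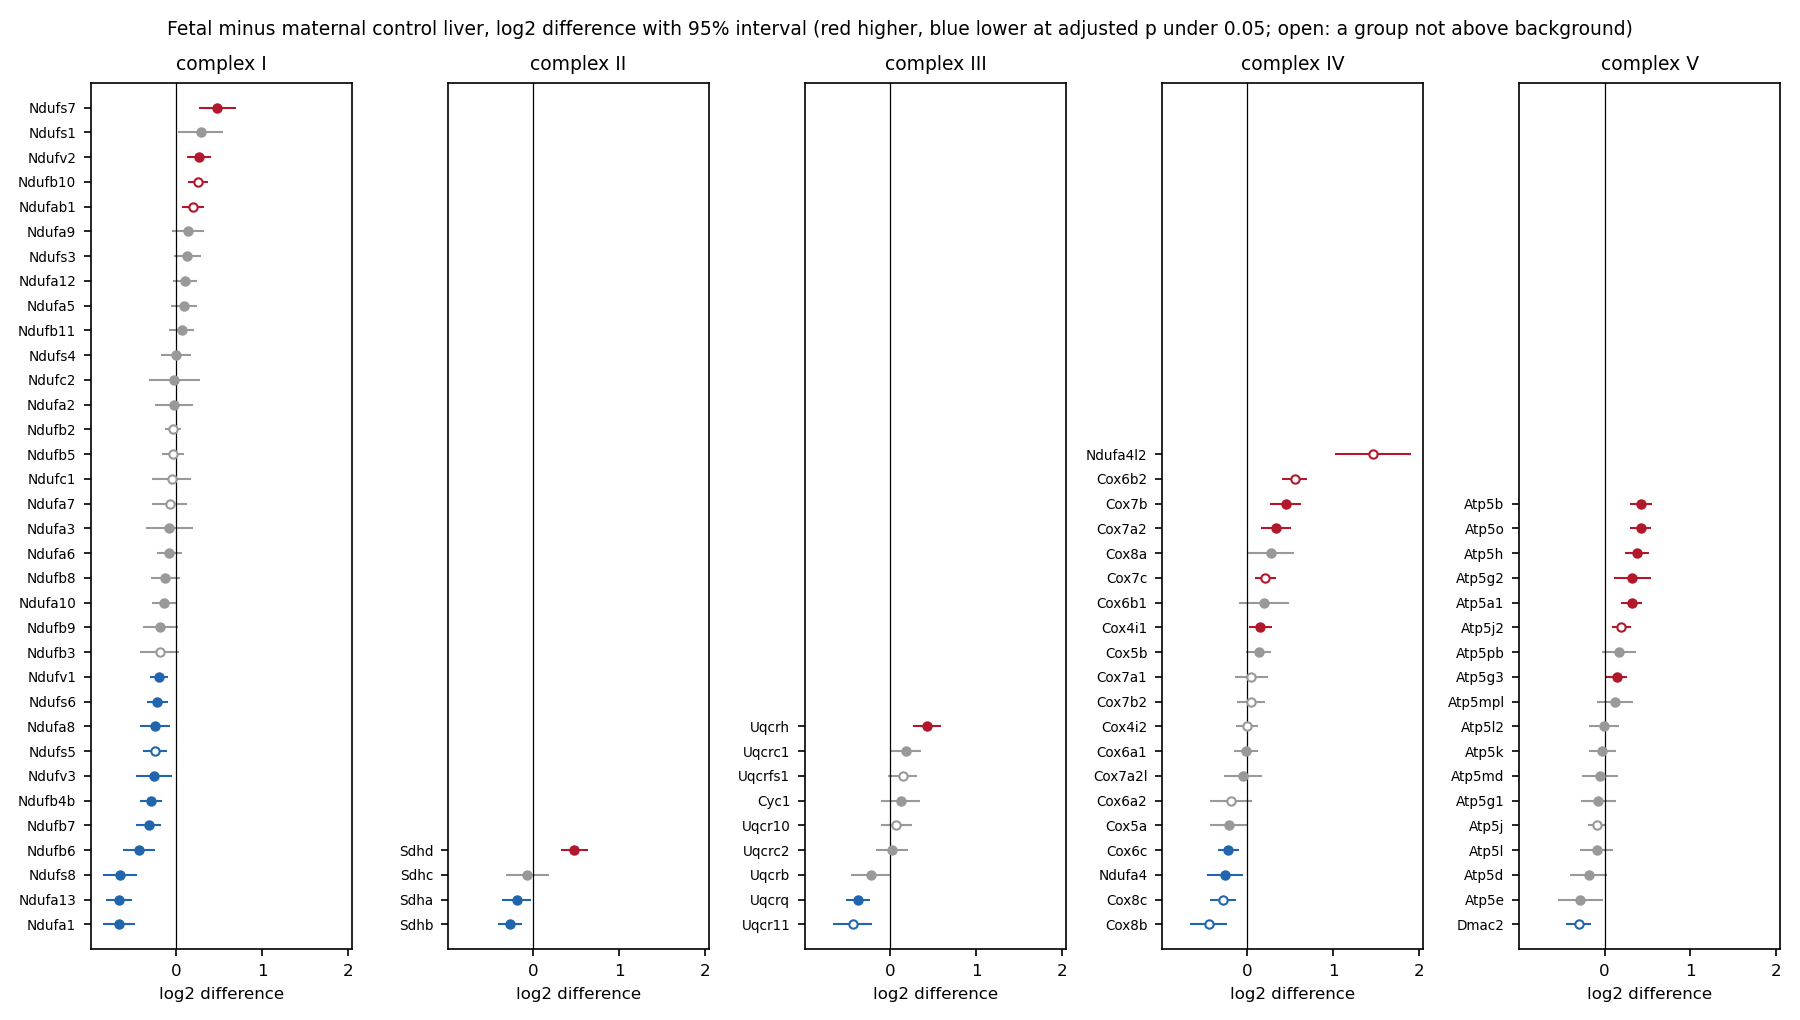
Log2 difference between fetal and maternal control liver for the 85 genes by complex, with 95% intervals. Red is higher and blue lower in fetuses at an adjusted p under 0.05, and open points mark genes not above background in at least 1 of both groups. Complex I has 4 higher and 11 lower genes and complex V has 7 higher and 1 lower. The lower gene of complex V is Dmac2, which was not above background in either group.

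Other mitochondrial gene groups were counted beside the subunits in the same fits, and the same background shares apply. Of 16 citric acid cycle enzymes, 12, 6 and 13 rose in PFOA5, GenX2 and GenX10 dams and 5, 6, 10 and 14 in the 4 fetal groups, and none fell. Their median log2 difference was 0.50 in PFOA5 dams and 0.37 in GenX10 fetuses, against 0.26 and 0.23 for the 85 subunit genes. Mdh2, the mitochondrial malate dehydrogenase, rose by 0.76 in PFOA5 dams (adjusted p = 5.7e-08). Of 9 mitochondrial carriers and channels, among them the outer-membrane channels Vdac1 to Vdac3, 8 rose in PFOA5 dams and 6 in GenX10 fetuses. Slc25a20, which carries acylcarnitines into mitochondria, rose by 1.64 and 1.53 in PFOA5 and GenX10 dams and by 2.04 in GenX10 fetuses. Slc25a4, an ADP/ATP carrier, rose by 0.99, 1.24, 1.35 and 1.46 in the 4 fetal groups.

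Of 16 genes for electron carriers and coenzyme Q synthesis, 7 rose and 1 fell in PFOA5 dams, 7 rose in GenX10 dams and 6 rose in GenX10 fetuses. Etfdh, which feeds electrons from fatty acid oxidation into the ubiquinone pool, rose by 0.84, 0.70 and 0.85 in PFOA5, GenX2 and GenX10 dams and by 1.32 in GenX10 fetuses (adjusted p = 6.1e-10). Cycs, the cytochrome c that links complexes III and IV, rose by 0.75 in GenX10 fetuses (adjusted p = 0.00077). The Etfdh differences in fetuses and dams can be read beside the highest called difference from control of the 85 subunit genes, 0.79 for Ndufs7 in PFOA5 dams.

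Assembly factors and related genes were counted in the same way, and their difference from the subunit genes was not tested. Of all genes, 20.1% were called and 11% were higher in PFOA5 dams, and 7.66% were higher in GenX10 dams. In GenX2 and GenX10 fetuses 3.99% and 4.5% of all genes were higher. Of 40 assembly factors, 9 rose and 1 fell in PFOA5 dams, 4 rose in GenX10 dams and 7 in GenX10 fetuses. The count in GenX10 dams was near the share of all genes. Cox17, a copper chaperone for complex IV, rose by 0.66 in PFOA5 dams (adjusted p = 1.1e-07). Of 75 mitochondrial ribosomal protein genes, 20 rose in PFOA5 dams, 20 in GenX10 dams and 9 each in GenX2 and GenX10 fetuses, and none fell. Of 14 regulators of mitochondrial biogenesis, 5 rose and 1 fell in PFOA5 dams and 2 rose in GenX10 fetuses. Twnk, the mitochondrial DNA helicase, rose by 0.65 in PFOA5 dams (adjusted p = 1.2e-06), while Ppargc1a, a coactivator known to raise respiratory chain genes, was called lower in PFOA5 dams (adjusted p = 7.3e-05) at a signal not well above background in either group.

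Of 5 mitochondrially encoded subunit genes on the array, 1 passed in any exposed group, mt-Nd2, which encodes a membrane subunit of complex I. Its fetal PFOA5 arrays ran from 11.78 through a median of 12.11 to 12.54, against 10.77 through 11.04 to 11.21 in controls, and did not overlap. The difference was 1.15 ± 0.13 in PFOA5 fetuses (adjusted p = 2.7e-06) and 0.62 ± 0.17 in PFOA5 dams (adjusted p = 0.012). In PFOA1, GenX2 and GenX10 fetuses the means were 11.05, 10.95 and 11.00, against 11.00 in controls. The mt-Nd2 means of the other fetal groups stayed within the control spread, and none of the 85 nuclear genes was called between PFOA1 and PFOA5 fetuses.

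Markers of other cells were read beside these counts and beside the share of all genes called in either direction. That share was 20.1%, 3.4% and 13.8% in PFOA5, GenX2 and GenX10 dams. In PFOA1, PFOA5, GenX2 and GenX10 fetuses it was 0.965%, 3.44%, 6.86% and 9.42%. Single calls in lists this short are not read as a change in a cell type. In PFOA5 dams, 5 of 10 macrophage and Kupffer cell markers were higher and none lower (median 0.51), with array means of 7.06, 7.71, 7.88, 7.91 and 7.9997 against 6.86 to 7.68 in controls. In GenX10 dams 3 were higher, with array means of 7.36 to 8.02. In fetuses the called macrophage markers were lower, 1 each with PFOA5 and GenX2 and 2 with GenX10 (medians −0.20, −0.10 and −0.20), among them Csf1r, the macrophage growth factor receptor (−0.28, −0.27 and −0.31, adjusted p = 0.044, 0.044 and 0.023). None was called in PFOA1 fetuses. Of 10 striated muscle markers, 7 were lower in PFOA5 dams and 3 in GenX10 dams, where 20.1% and 13.8% of all genes were called in either direction. The mean log2 signal of these 10 markers was 6.56 in control, 6.39 in PFOA5 and 6.41 in GenX10 dams. These means lay under the lowest background of any array, 7.38, so the falls do not measure a change in muscle cells. Of 10 hepatocyte markers, 1 was higher and 2 lower in PFOA5 dams (median −0.09), and 1 was higher each in GenX2 and GenX10 dams. In fetuses 1 was higher with PFOA1, 2 were lower with PFOA5, 1 was higher and 3 lower with GenX2, and 3 were lower with GenX10 (medians −0.04, −0.13, −0.15 and −0.19). Erythroid markers were not called in any exposed group except Slc4a1 in GenX2 fetuses (0.24, adjusted p = 0.035). The part of these cell types in the subunit differences was not tested.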

How the data were processed

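Livers were profiled on Affymetrix whole-transcript arrays. The authors deposited log2 signals made with RMA, with mm10 among the genome builds, per the submitters' processing notes; versions and the normalization settings are not given in the sources used here. Of the 65956 transcript clusters, 30604 carried 1 gene symbol, 2146 several (left out) and 33206 none in the platform annotation; 827 symbols were updated through RefSeq. For each of 30142 genes the probe with the highest mean over all 50 arrays was used (355 genes, and 3 of the 85 subunit genes, had several). Near-identical copies such as Ndufb4b and pseudogene transcripts may share probes, which was not checked.

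Differences were estimated two-sided with limma 3.58.1 (R 4.3.3; lmFit, eBayes). Each tissue had a model of its 5 groups, and contrasts across tissues came from a model of all 10, without covariates or further normalization. The threshold was an adjusted p of 0.05 (Benjamini-Hochberg, all 30142 genes). Differences are on the deposited log2 scale. The number of arrays limits the precision. Tables and figures were made with Python 3.11.15, pandas 2.3.3 and matplotlib 3.10.9. The scripts were tested on simulated data. Values by array are given for the called gene of each complex with the largest difference in maternal PFOA5, fetal GenX10 and the control tissues, for the Sdh genes and for the isoform sets; up to 3 rises and 3 falls per complex and comparison were eligible to be named, and of the other lists the 2 called genes with the smallest adjusted p. Atp5g1 and Atp5g2 were named beyond this rule, after their values were seen. The members and lists were chosen with earlier results of these data known. Replicate numbers were not used to pair the arrays, since the labels do not name the pairs.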

Additional observations from a re-analysis of the deposited data

Results flagged for a closer look

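Samples far from the others of their group were looked for by the gap of the highest or lowest array to its nearest neighbour, in 300 groups of single genes and complex means, and 26 met Dixon's limit. Chance alone meets it in about 1 in 20 groups, and genes of 1 array do not vary independently.

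Several of them fell on the same arrays. Maternal PFOA5 replicate 3 was low for Sdhc (8.72, others 9.10 to 9.23), Cox6a1 (11.24, others 11.46 to 11.55), Cox6b2 (7.21, others 7.35 to 7.39), Cox8a (10.14, others 10.67 to 10.76), Uqcr10 (7.35, others 7.58 to 7.67) and Ndufa3 (7.81, others 8.38 to 8.53). It was also low for the mean of complex I (8.52, others 8.69 to 8.75) and of complex V (8.93, others 9.15 to 9.22). Without it the maternal PFOA5 count rose from 45 to 56 genes. Maternal GenX2 replicate 1 was high for Sdhb (9.84, others 9.21 to 9.37), Cox4i1 (8.84, others 8.42 to 8.50), Ndufs7 (8.98, others 8.26 to 8.46) and the mean of complex II (9.77, others 9.18 to 9.34). Without it the maternal GenX2 count fell from 16 to 8 genes.

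In maternal PFOA1, replicate 1 was low for the means of complex I (8.42, others 8.50 to 8.53) and complex V (8.82, others 8.92 to 8.93). The remaining maternal values were Sdhd in PFOA5 replicate 1 (10.15, others 9.98 to 10.03), Cox8b in PFOA5 replicate 4 (5.20, others 4.88 to 4.95), Ndufa4l2 in PFOA5 replicate 5 (6.83, others 7.18 to 7.21) and the complex I mean in GenX10 replicate 1 (8.83, others 8.73 to 8.75). Cox8b and Ndufa4l2 were not above background there.

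In fetuses the values were Ndufs7 in PFOA1 replicate 1 (8.61, others 8.79 to 8.85), the complex IV mean in PFOA1 replicate 5 (8.37, others 8.21 to 8.22), Cox6a2 in PFOA5 replicate 3 (7.20, others 6.05 to 6.46) and Atp5g3 in PFOA5 replicate 5 (9.60, others 9.38 to 9.45). In GenX2 they were Cox6b2 in replicate 2 (7.77, others 7.52 to 7.57) and Ndufa3 in replicate 5 (8.91, others 8.49 to 8.59), the array whose source name gives another group. In GenX10 they were Sdhb in replicate 4 (9.09, others 9.11 to 9.12) and Cox6a1 in replicate 2 (11.13, others 11.43 to 11.49).

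The PFOA5 effect differed between fetus and dam, in limma, for Ndufs7 (−0.58 log2, fetal minus maternal), Cox7a2 (−0.44), Sdhd (−0.42) and Ndufa13 (0.41). Ndufb3 was also called (−0.52), but it was above background on no fetal array, so its fetal effect is not measured. These 5 genes were 5.88% of the 85, near the 4.54% of all genes called.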

How the results depend on the processing

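No alternative gave more falls than rises against control among the subunit genes. Repeated quantile normalization gave 25 called genes in PFOA5 dams, 22 higher and 3 lower (main count 45), 5, 4, 16 and 19 in PFOA1, PFOA5, GenX2 and GenX10 fetuses (8, 13, 30 and 37) and 14 between PFOA5 and PFOA1 dams (36). Array weights gave 32 in GenX2 dams (16), 26 in PFOA5 fetuses (13), and 13 and 4 tissue differences of the PFOA5 and GenX10 effects (5 and 0). Fitting only the groups compared gave 6 in GenX2 dams, 21 in GenX10 fetuses and 0 between GenX10 and GenX2 dams (1). Median centring gave 5 in PFOA1 fetuses and 3 tissue differences of the PFOA5 effect. Leaving out dim genes gave 13 in PFOA1 fetuses and 3 differences of the GenX10 effect. Without the arrays with Y-linked signal, PFOA1 fetuses had 4 and the effect differences numbered 3 (PFOA5) and 1 (GenX10). With source names followed, GenX2 fetuses had 19 and the GenX10 effect 2 differences. With the replicate block the PFOA5 effect had 3 differences and no other count moved by over 1.5 times. Same-numbered maternal arrays correlated at −0.25 to 0.24 and fetal ones at −0.55 to 0.59 in their deviations. Maternal and fetal arrays of the same number correlated at −0.33 to 0.18. These correlations do not settle whether the numbers pair the arrays.

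Leaving out 1 array gave 33 to 56 genes in PFOA5 dams, 8 to 34 in GenX2 dams, 38 to 52 in GenX10 dams, 3 to 10, 7 to 17, 22 to 31 and 20 to 36 in the fetal groups, 21 to 46 between PFOA doses in dams, 37 to 41 between control tissues, and 3 to 7 (PFOA5) and 0 to 1 (GenX10) effect differences. The causes were not tested. Background correction and a slide or scan block were not run, since no scanner files were used here. Signals near background limit the dim genes.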
